A study of Mus musculus with 10 samples.

Results

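Integrins are cell surface receptors built of 1 alpha and 1 beta subunit, and laminins are the large three-chain proteins that many of them bind in the basement membrane, the thin matrix sheet under epithelium and around vessels. The genes described here were every gene of the deposited table whose single annotated symbol was an integrin alpha or beta subunit or a laminin chain, together with the nidogens Nid1 and Nid2, perlecan (Hspg2) and agrin (Agrn). This gave 35 of the 12393 genes that the array's annotation names, measured by 62 of 22626 probe sets. A probe set is a group of short probes read together as 1 value, and some probe sets carry the symbols of several genes. For each gene the brightest probe set (the highest mean of the 10 arrays) was used. The members were kept in 3 classes, 7 leukocyte integrins, 14 integrins that mainly bind matrix and 14 basement membrane genes. Itga1, Itga10, Itga11, Itgad and Itgb8 were not analysed here.

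The study measured whole lung of male C57BL/6 mice, a common inbred strain, between 6 and 8 weeks of age, with 1 Affymetrix 430A 2.0 array for each animal. In the exposed group 5 mice underwent intermittent hypoxia, in which inspired oxygen falls and recovers in cycles, and 5 control mice were kept in normoxia. No genetic change or drug is named for either group, and the oxygen levels and the length of exposure are not given in the sources used here. Values are log2 levels, so a difference of 1 is a doubling on this scale, and levels of different genes are not compared because probes differ in brightness.

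Array medians lay between 7.69 and 7.73 and pairs of arrays correlated at 0.982 to 0.996 over all probe sets. The spread over probe sets was narrower on normoxia arrays 2, 3 and 4 (SD 1.89 to 1.93) than on the other arrays (1.99 to 2.05), so results are also given without these 3 arrays. The labels name no batch or scan date. Lung identity was plain from alveolar type 2 markers, whose mean log2 level ran from 13.33 to 13.51 over the hypoxia arrays and from 13.26 to 13.50 over the normoxia arrays. The mouse is the replicate, and 5 arrays a group limit the precision of every value. In whole tissue, more cells of a type and more RNA per cell cannot be told apart.

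Leukocyte integrins hold blood cells to vessel walls and to each other. The beta-2 chain pairs with CD11a, CD11b or CD11c, and the beta-7 chain pairs with the alpha-4 or alpha-E chain. Matrix integrins tie epithelium, fibroblasts, muscle and vessels to fibronectin, collagen, laminin and other ligands. In basement membrane, laminin trimers of 1 alpha, 1 beta and 1 gamma chain form a sheet that nidogens and perlecan link to type IV collagen. In alveoli this sheet lies between the thin epithelial cells and the capillaries.

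Promoter windows from 250 bases before to 50 bases after the start of the transcript are shown for the gene with the largest rise in each class among those with an entry in the RefSeq table (GRCm38.p6), since these genes rose. The table held 26 windows for 22 of the 35 members. Capitals mark ACGTG or GCGTG, the core letters of the hypoxia response element, GGAAGT, a core bound by ETS factors such as the leukocyte factor PU.1, and TGAGTCA, the AP-1 motif, each searched on both strands.
Itgax, chr7:128129300-128129599, plus strand: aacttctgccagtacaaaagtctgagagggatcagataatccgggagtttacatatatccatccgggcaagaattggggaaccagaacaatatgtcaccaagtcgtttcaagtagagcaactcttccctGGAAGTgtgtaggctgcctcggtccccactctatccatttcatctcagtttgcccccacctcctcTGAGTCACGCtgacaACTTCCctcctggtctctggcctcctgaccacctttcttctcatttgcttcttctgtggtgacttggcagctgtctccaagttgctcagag
Itga8, chr2:12301895-12302194, minus strand: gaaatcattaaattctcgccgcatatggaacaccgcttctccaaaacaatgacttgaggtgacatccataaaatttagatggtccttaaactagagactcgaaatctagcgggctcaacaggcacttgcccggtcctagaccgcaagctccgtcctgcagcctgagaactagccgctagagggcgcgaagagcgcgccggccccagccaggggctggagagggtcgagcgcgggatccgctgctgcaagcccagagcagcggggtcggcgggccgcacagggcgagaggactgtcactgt
Lamb3, chr1:193301744-193302043, plus strand: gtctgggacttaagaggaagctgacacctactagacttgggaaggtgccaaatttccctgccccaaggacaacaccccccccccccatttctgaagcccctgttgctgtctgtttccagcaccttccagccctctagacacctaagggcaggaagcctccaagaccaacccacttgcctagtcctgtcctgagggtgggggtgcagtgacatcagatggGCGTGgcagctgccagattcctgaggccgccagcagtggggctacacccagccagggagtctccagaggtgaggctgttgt
The Itgax window held GGAAGT letters beginning at -121 and -41, the AP-1 letters at -56 and GCGTG on the opposite strand at -51, where the last letters of the AP-1 match are shared. The Lamb3 window, the first of its start sites, held GCGTG at -31, and the Itga8 window held none of these letters. Over all 32851 windows of this length 32.39% held GCGTG, 19.62% ACGTG, 23.77% GGAAGT and 5.2% TGAGTCA. Among the 26 member windows 9 held GCGTG, 1 ACGTG, 7 GGAAGT and 2 TGAGTCA. A match is a run of letters, not a shown binding site.

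Of the 35 members 8 were higher after intermittent hypoxia and 1 was lower at a limma adjusted p below 0.05, and 26 did not pass. The higher genes were 22.9% of the members, against 8.93% of all 12393 genes, and the lower gene was 2.86%, against 3.6% of all genes. In both directions together 25.7% of members passed, against 12.5% of all genes. The median log2 fold change was 0.14 over the members and 0.01 over all genes. The groups did not overlap in 5 members (14.3%), 3 higher and 2 lower, against 8.61% of all genes (5.76% higher and 2.85% lower). The members were chosen as a family with earlier results known, so these shares are a description without a test.

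**Figure D1:**
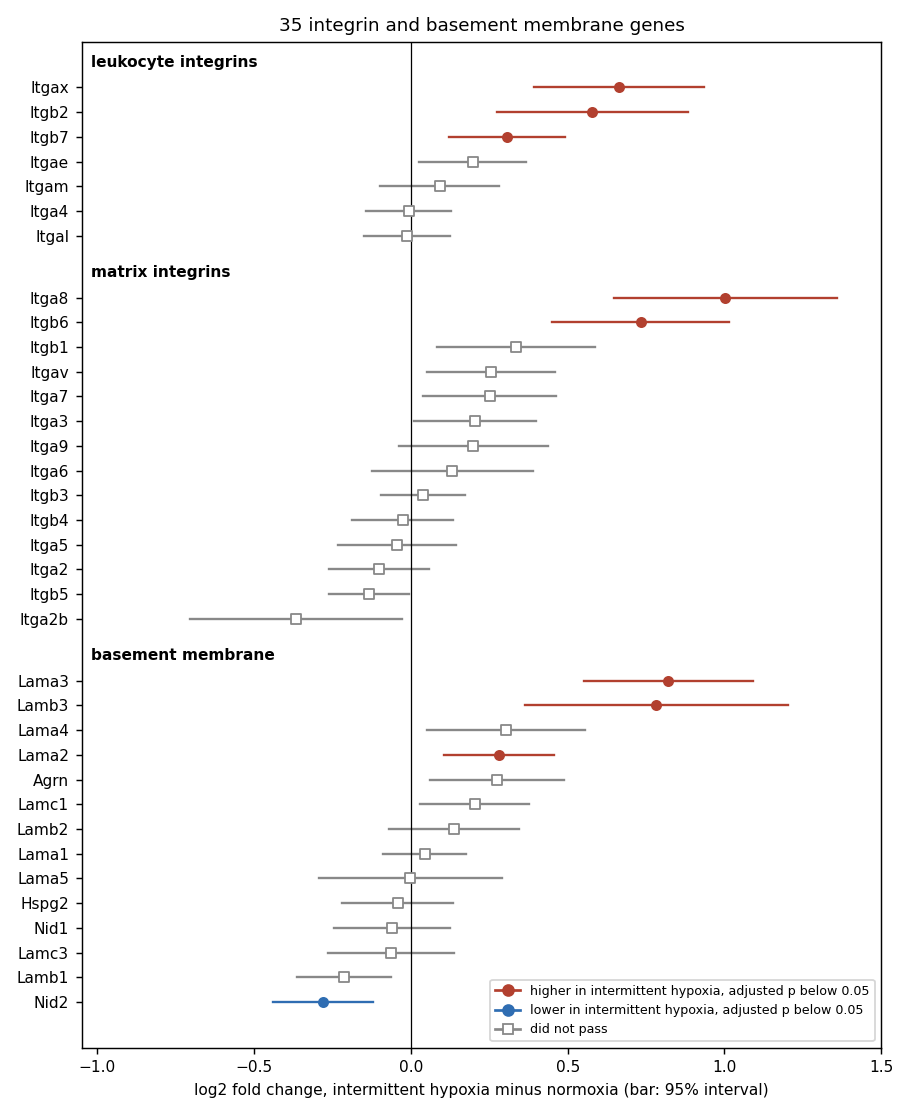
Log2 fold change (intermittent hypoxia minus normoxia) of the 35 genes in their 3 classes, with 95% intervals from limma. Filled circles mark the 8 higher genes and the 1 lower gene past an adjusted p of 0.05, and open squares mark the 26 that did not pass.

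Among leukocyte integrins, 3 of 7 genes rose and none fell, a share of 42.9% higher, against 8.93% of all genes. The genes were Itgax, which encodes the CD11c chain of dendritic cells and alveolar macrophages, Itgb2, which encodes CD18, the beta-2 chain that CD11c needs, and Itgb7, the beta-7 chain of gut- and epithelium-homing lymphocytes. Rises were 1.58-fold for Itgax, 1.49-fold for Itgb2 and 1.24-fold for Itgb7. The other alpha partners of the beta-2 chain, Itgal and Itgam, did not pass, and neither did Itga4 or Itgae, the partners of beta-7.

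Itgax read 9.43, 9.35, 9.27, 9.39 and 8.73 on hypoxia arrays 1 to 5, against 8.78, 8.51, 8.40, 8.48 and 8.69 on normoxia arrays 1 to 5. Hypoxia arrays 1 to 4 stood above every normoxia array, while hypoxia array 5 lay under normoxia array 1. The log2 fold change was 0.66 (SE 0.13, limma adjusted p = 0.00929). Leaving out any single array kept the call, with adjusted p values from 0.00161 to 0.0305. Without normoxia arrays 2 to 4 the difference was 0.50 with an adjusted p of 0.312.

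Itgb2 read 9.80, 9.42, 9.27, 9.42 and 8.95 on hypoxia arrays 1 to 5, against 9.01, 8.57, 8.55, 8.92 and 8.91 on the normoxia arrays. Only hypoxia array 5 fell inside the normoxia range. Limma gave a log2 fold change of 0.58 (SE 0.14, adjusted p = 0.0226). The call was lost without hypoxia array 2 (adjusted p = 0.0516) or normoxia array 2 (0.0556) or 3 (0.0608), and without normoxia arrays 2 to 4 the difference was 0.41 (adjusted p = 0.459).

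Itgb7 read 8.39, 8.11, 8.24, 8.18 and 8.00 on hypoxia arrays 1 to 5, against 7.88, 8.01, 7.69, 7.82 and 7.99 on the normoxia arrays. Here too hypoxia array 5 was the single one within the normoxia range, and array 1 the highest, as for Itgax and Itgb2. Its log2 fold change of 0.31 (SE 0.09) had a limma adjusted p of 0.0369. This call was lost without hypoxia array 1, 2, 3 or 4 or normoxia array 3 or 4, at adjusted p values from 0.0582 to 0.0926, and without normoxia arrays 2 to 4 the difference was 0.25 (0.447).

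Among the 4 leukocyte alpha chains that did not pass, the groups overlapped in every gene. Their group means all lay under the array medians (7.69 to 7.73), and no detection call comes with these values. Itgal, which encodes the CD11a chain of lymphocyte adhesion, averaged 7.29 ± 0.09 in hypoxia and 7.31 ± 0.06 in normoxia (SD, n = 5 each), and the 95% interval of its log2 fold change ran from -0.15 to 0.12. Itgam, the CD11b chain of neutrophils and monocytes, averaged 5.49 ± 0.12 in hypoxia and 5.39 ± 0.17 in normoxia, with an interval from -0.10 to 0.28. Itga4, whose alpha-4 chain binds VCAM-1, had an interval from -0.14 to 0.13. Itgae, the CD103 chain of epithelial T cells and some dendritic cells, averaged 7.01 ± 0.11 in hypoxia and 6.82 ± 0.14 in normoxia, and its log2 fold change was 0.20 (SE 0.08, limma adjusted p = 0.114).

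Markers of blood cells moved beside these genes. Over all genes 8.93% rose and 3.6% fell. All 5 pan-leukocyte markers rose, among them Ptprc (CD45), by 0.75 log2 units (SE 0.14, adjusted p = 0.00861, limma), and Cd53, by 0.77 (SE 0.10, adjusted p = 0.00177). Their mean log2 level ran from 10.22 to 10.57 over the hypoxia arrays and from 9.28 to 9.86 over the normoxia arrays, without overlap. Of 6 macrophage markers 2 rose, Cd68 by 0.74 and Mrc1 by 0.41, while Adgre1 stood at -0.21 and Marco at 0.04 without passing. The mean level of the 6 ran from 9.03 to 9.64 in hypoxia and from 9.05 to 9.14 in normoxia. Hypoxia array 5 was the lowest hypoxia array for all 3 leukocyte integrins that rose. It was also the lowest for Itga8, Lama2, Lama3 and Lamb3, though not for Itgb6. Its spread over probe sets (SD 1.99) was the narrowest of the hypoxia arrays. The macrophage mean of hypoxia array 5 was the lowest of the 10 arrays through Chil3, a macrophage chitinase-like gene. Chil3 read 10.18 on hypoxia array 5, against 11.62 to 12.19 on the other hypoxia arrays and 10.57 to 11.02 on the normoxia arrays. The mean of the other 5 markers, an alternative chosen after seeing the data, was 8.80 on hypoxia array 5, 8.97 to 9.15 on the other hypoxia arrays and 8.71 to 8.83 on the normoxia arrays. Cd68 on hypoxia array 5 (7.51) stood above every normoxia array (6.98 to 7.43). Of 5 dendritic cell markers 3 rose, H2-Aa, H2-Eb1 and Cd74, while Flt3 stood at -0.19 and Xcr1 at -0.04 without passing. Mean levels of the 5 were 10.41 to 10.66 in hypoxia and 10.05 to 10.35 in normoxia. Of 7 T and NK cell markers 3 rose, while Cd4 stood at -0.22 and Cd3e at -0.09 without passing. Mean levels of the 7 were 7.55 to 7.89 in hypoxia and 7.43 to 7.68 in normoxia. All 3 B cell markers rose (9.31 to 10.23 in hypoxia and 8.14 to 9.36 in normoxia). Of 6 neutrophil markers none rose and Mmp8 fell, by 0.49 log2 units (8.12 to 8.70 in hypoxia and 8.14 to 9.35 in normoxia). None of the 5 pan-leukocyte markers passed the adjusted limma test without normoxia arrays 2 to 4 (all 5 were higher at an unadjusted p under 0.05), when Ptprc differed by 0.42 and Cd53 by 0.64. The part of cell numbers in the integrin differences was not tested.

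**Figure D2:**
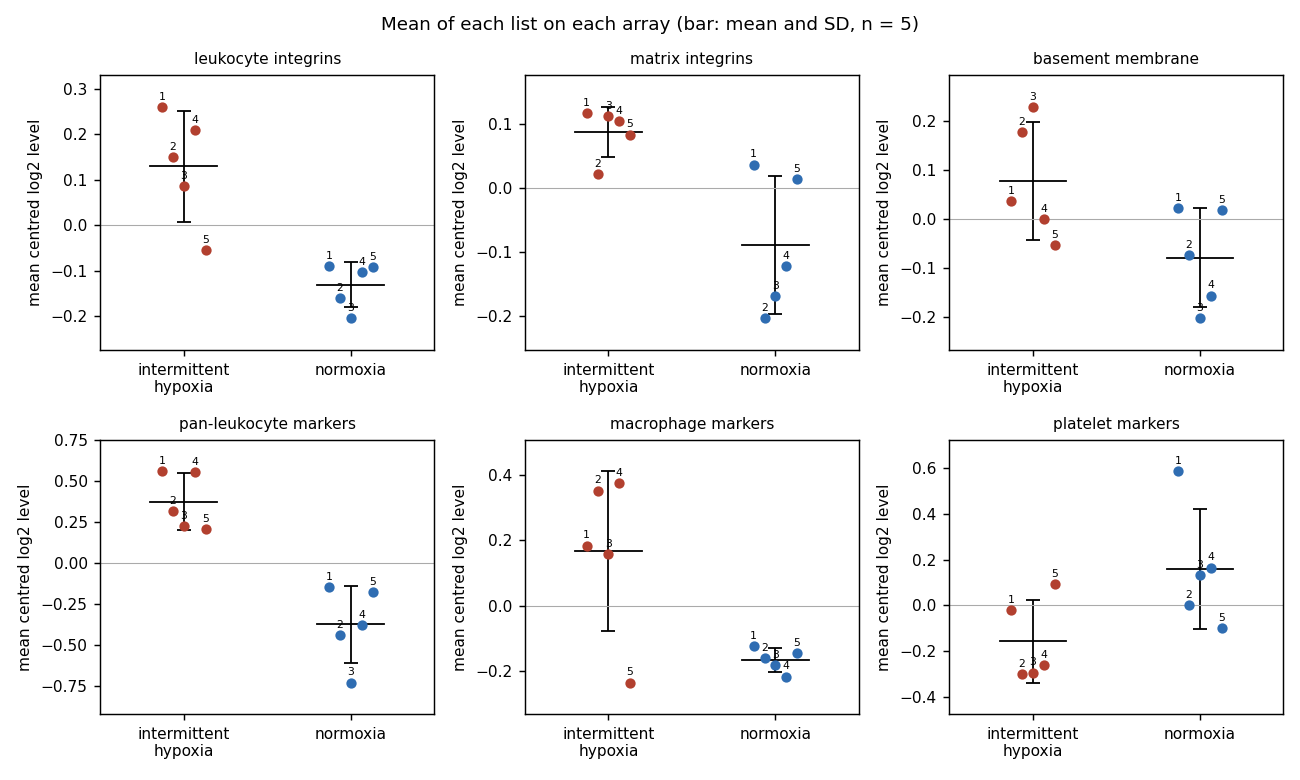
Mean centred log2 level of each list on each array, with intermittent hypoxia left of normoxia and the array number above each point. Bars give the mean and SD over 5 arrays. The pan-leukocyte markers do not overlap between groups. Neither do the leukocyte integrins, by a small margin (lowest hypoxia point -0.05, highest normoxia point -0.09). For both lists hypoxia array 5 is the lowest hypoxia array. Its low macrophage point rests on Chil3 (10.18).

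Among matrix integrins 2 of 14 genes rose and none fell. This share of 14.3%, from 2 genes, stood against the 8.93% of all genes that rose. It lay near the 12.5% of all genes that passed in either direction. Itga8 rose 2.00-fold and Itgb6 rose 1.66-fold, and in both genes every hypoxia array stood above every normoxia array. The Itga8 chain forms the receptor for nephronectin on lung fibroblasts and smooth muscle cells. The Itgb6 chain, with the alpha-v chain, forms an epithelial integrin that releases TGF-beta from its latent form.

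Itga8 read 9.63, 9.15, 9.56, 9.12 and 8.92 on hypoxia arrays 1 to 5, against 8.54, 7.84, 8.04, 8.34 and 8.59 on the normoxia arrays. Normoxia arrays 1 and 5 were the closest to the hypoxia arrays. The log2 fold change of 1.00 (SE 0.16, limma adjusted p = 0.00594) was the largest among the 35 members. No single array ended the call, with adjusted p values from 0.00326 to 0.0189, and without normoxia arrays 2 to 4 the difference was 0.71 (adjusted p = 0.181).

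Itgb6 read 9.0, 8.36, 8.72, 8.89 and 8.83 on hypoxia arrays 1 to 5, against 8.12, 7.74, 7.81, 8.17 and 8.30 on the normoxia arrays. The gap was narrow, as hypoxia array 2 lay just above normoxia array 5. The log2 fold change was 0.73 (SE 0.13, limma adjusted p = 0.00794), and the other probe set of the gene rose as well, by 0.33 (SE 0.07, adjusted p = 0.0168). The call stood without each single array (0.00393 to 0.0252), and without normoxia arrays 2 to 4 the difference was 0.55 (adjusted p = 0.214).

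Subunits shared by many receptors did not pass on their brightest probe sets. Itgb1, the beta-1 chain that most matrix integrins contain and the partner of Itga8, averaged 11.61 ± 0.14 in hypoxia and 11.28 ± 0.27 in normoxia (log2 fold change 0.34, SE 0.12, limma adjusted p = 0.0747). Itgav, the alpha-v chain that pairs with beta-6, averaged 10.95 ± 0.15 in hypoxia and 10.69 ± 0.17 in normoxia (0.26, SE 0.09, adjusted p = 0.0884). In both genes the groups overlapped. Laminin receptor chains gave log2 fold changes of 0.21 for Itga3 (SE 0.09), 0.13 for Itga6 (SE 0.12) and -0.03 for Itgb4 (SE 0.07), and none passed. The Itga7 chain, the laminin receptor of muscle, stood at 0.25 (SE 0.10, adjusted p = 0.105).

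Other fibronectin, collagen and RGD receptors were spread around 0 on their brightest probe sets. Itga5, the fibronectin receptor chain, had a log2 fold change of -0.05 (95% interval -0.23 to 0.14), Itga2, a collagen receptor chain, -0.10 (-0.26 to 0.06), and Itgb3 0.04 (-0.09 to 0.17). Itga9 stood at 0.20 and Itgb5 at -0.13, though the other probe sets of Itgb5 were positive. For both genes another probe set passed as higher, as given further below. Itga2b, the platelet fibrinogen receptor chain, read 8.35, 8.28, 8.00, 7.95 and 8.40 on the hypoxia arrays, against 9.18, 8.39, 8.62, 8.37 and 8.24 on the normoxia arrays. It had the most negative log2 fold change of the members, -0.37 (SE 0.16, limma adjusted p = 0.133), and did not pass. None of 5 platelet markers passed either, and their mean level ran from 8.51 to 8.90 in hypoxia and from 8.71 to 9.39 in normoxia, with normoxia array 1 the highest for the markers and for Itga2b alike.

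Markers of the cells that carry matrix integrins are given for comparison, where 8.93% of all genes rose and 3.6% fell. Of 6 fibroblast markers 2 rose, with a mean level of 10.66 to 10.89 in hypoxia and 10.38 to 10.82 in normoxia. No smooth muscle marker of 5 passed (10.37 to 10.87 in hypoxia and 10.47 to 10.73 in normoxia), and no endothelial marker of 6 (11.14 to 11.39 in hypoxia and 10.80 to 11.38 in normoxia). Of 4 type 1 cell markers Aqp5 rose (12.33 to 12.52 in hypoxia and 12.05 to 12.42 in normoxia), and no type 2 cell marker of 4 passed. No airway marker of 4 passed (11.23 to 11.35 in hypoxia and 11.36 to 11.93 in normoxia). Of 6 striated muscle markers 2 fell, with mean levels of 6.59 to 6.98 in hypoxia and 6.97 to 10.22 in normoxia. Normoxia array 2 held that upper value. Itga7 read 6.95 on that array and 6.76 to 7.19 on the other normoxia arrays. The part of all these cell types in the integrin and laminin differences was not tested.

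Among basement membrane genes 3 of 14 rose (21.4%, against 8.93% of all genes) and 1 fell (7.14%, against 3.6%). Lama3 rose 1.77-fold and Lamb3 1.72-fold, an alpha and a beta chain of the laminin that anchors epithelial cells. Lama2, the alpha chain of muscle and mesenchymal basement membranes, rose 1.21-fold. Nid2, one of the nidogen linkers, fell to 0.823 of its normoxia level. Perlecan, agrin, Nid1 and the other 7 laminin chains did not pass.

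Lama3 read 9.08, 9.08, 9.40, 9.02 and 8.79 on hypoxia arrays 1 to 5, against 8.42, 8.24, 7.93, 8.14 and 8.55 on the normoxia arrays. Every hypoxia array stood above every normoxia array. Its log2 fold change of 0.82 (SE 0.12, limma adjusted p = 0.00456) had the smallest adjusted p of the 35 members. It held without each single array (0.00196 to 0.0175), and without normoxia arrays 2 to 4 the difference was 0.59 (adjusted p = 0.161).

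Lamb3 read 9.15, 8.93, 9.06, 8.56 and 8.26 on hypoxia arrays 1 to 5, against 8.52, 8.17, 7.47, 7.92 and 7.96 on the normoxia arrays. The groups overlapped, because hypoxia array 5 lay under normoxia array 1. As for Lama3, the lowest hypoxia array was array 5 and the lowest normoxia array was array 3. Limma gave a log2 fold change of 0.78 (SE 0.19, adjusted p = 0.0244), and the call was lost without hypoxia array 1, 2 or 3 or normoxia array 3 or 4, at adjusted p values from 0.058 to 0.0644. Without normoxia arrays 2 to 4 the difference was 0.55 (0.449).

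Lama2 read 9.50, 9.57, 9.62, 9.26 and 9.26 on hypoxia arrays 1 to 5, against 9.26, 9.09, 9.17, 9.12 and 9.17 on the normoxia arrays. Hypoxia arrays 4 and 5 were level with normoxia array 1, and the other hypoxia arrays were higher. With a log2 fold change of 0.28 (SE 0.08, limma adjusted p = 0.042) it stood near the threshold. The call was lost without hypoxia array 1, 2 or 3 or normoxia array 2, 3 or 4 (0.0855 to 0.0997) and after quantile normalization (0.18, adjusted p = 0.101), and without normoxia arrays 2 to 4 the difference was 0.23 (0.543).

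Nid2 read 6.24, 6.53, 6.48, 6.25 and 6.32 on hypoxia arrays 1 to 5, against 6.60, 6.60, 6.71, 6.75 and 6.58 on the normoxia arrays. Every hypoxia array lay below every normoxia array, by a small margin on arrays 2 and 3. The log2 fold change was -0.28 (SE 0.07, limma adjusted p = 0.0296). The call was lost without hypoxia array 1 or 4 or normoxia array 2, 3 or 4 (0.0537 to 0.0796) and after quantile normalization (-0.23, adjusted p = 0.0588), and without normoxia arrays 2 to 4 the difference was -0.22 (0.475).

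**Figure D3:**
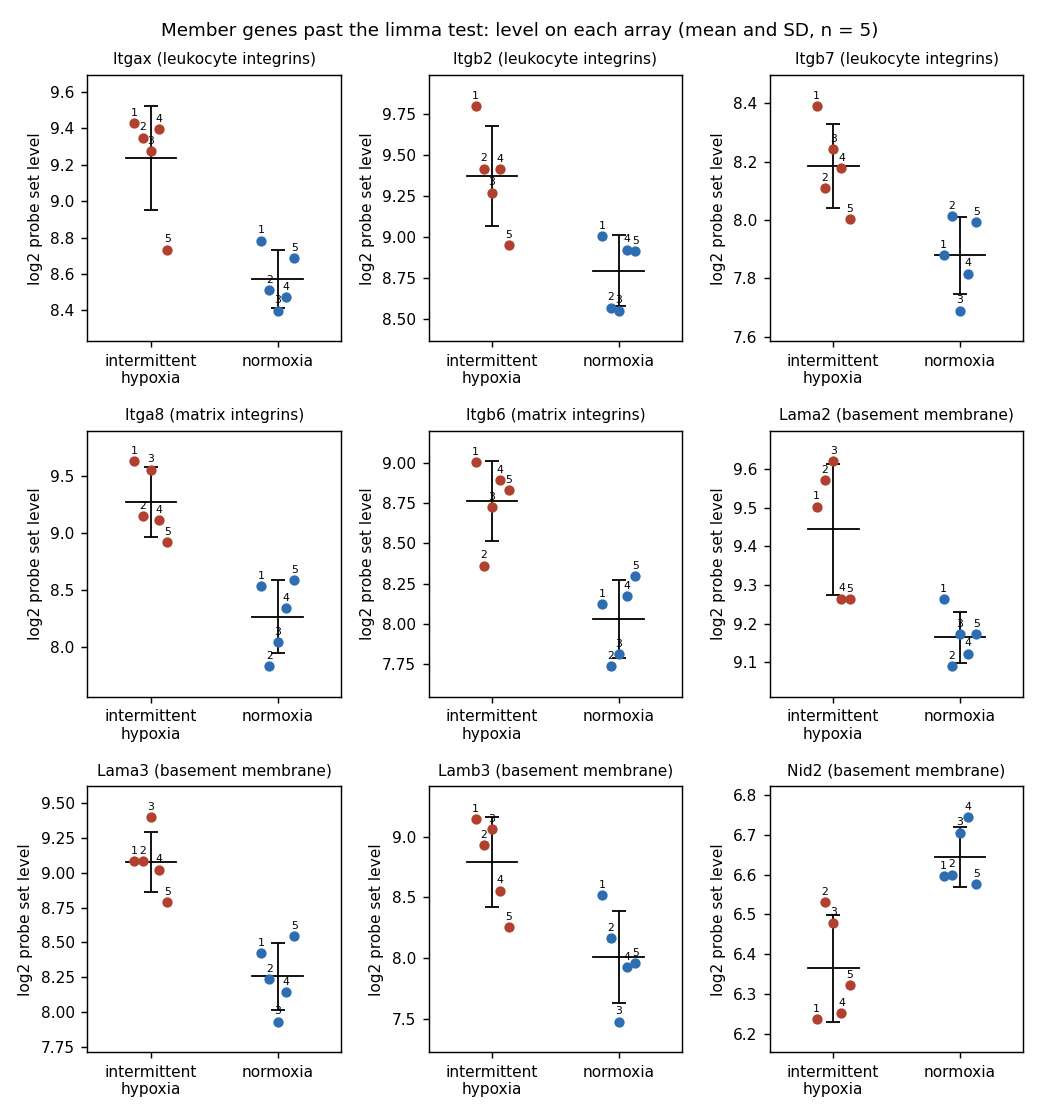
Log2 level of the 9 genes that passed the limma test on each array, with intermittent hypoxia left of normoxia. Points carry the array number, the long line is the mean and the bar the SD (n = 5 each). The groups do not overlap for Itga8, Itgb6, Lama3 and Nid2, and hypoxia array 5 lies inside the normoxia range for Itgax, Itgb2, Itgb7, Lama2 and Lamb3.

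Chains of the widespread laminins did not pass. Lama4 and Lama5, the alpha chains of vessel walls and of alveolar epithelium, had log2 fold changes of 0.30 (SE 0.12, limma adjusted p = 0.101) and -0.00 (SE 0.14, adjusted p = 0.996). Lama5 was spread more widely in hypoxia (SD 0.34) than in normoxia (SD 0.10, n = 5 each). Lamb2 stood at 0.14 (SE 0.10) and Lamc1, the gamma chain of most laminins, at 0.20 (SE 0.08, adjusted p = 0.107). Lamb1 averaged 9.42 ± 0.09 in hypoxia and 9.63 ± 0.11 in normoxia (-0.21, SE 0.07, adjusted p = 0.0623). The groups did not overlap for Lamb1, although it did not pass. Lama1, a chain of the embryo and kidney, stood at 0.04 and Lamc3 at -0.06.

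The linkers and proteoglycans gave values on both sides of 0. Nid1 had a log2 fold change of -0.06 (SE 0.09) and Hspg2, the heparan sulfate proteoglycan perlecan, -0.04 (95% interval -0.22 to 0.14). Agrn, which encodes agrin and binds laminin and dystroglycan, averaged 10.72 ± 0.11 in hypoxia and 10.45 ± 0.22 in normoxia (0.28, SE 0.10, limma adjusted p = 0.0824). Its lowest value of all was 10.08 on normoxia array 3.

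Further probe sets changed the picture for some genes. Of 16 members with several probe sets, 8 had probe sets of opposite sign and 5 had probe sets that differed in call. Over all 62 probe sets 13 were higher and 2 lower, where 8.5% of all probe sets on the array were higher and 3.43% lower (11.9% together). Second probe sets of Itga6 (0.34, SE 0.08, limma adjusted p = 0.0218), Itga9 (0.39, SE 0.10, adjusted p = 0.0274) and Itgb1 (0.52, SE 0.13, adjusted p = 0.0257) rose although the brightest ones did not pass. Of the 6 probe sets of Itgb1 this was the only one that passed. For Itgb5, the beta-5 chain of vitronectin receptors, the brightest probe set stood at -0.13 and was the only negative one. Another rose by 0.39 (SE 0.11, limma adjusted p = 0.0417), and the remaining ones, at 0.20 and 0.11, did not pass. For Lamb1 the other probe sets stood at 0.06 and 0.24, opposite to the brightest one. A second probe set of Lamc3 had a log2 fold change of -0.27 and fell (SE 0.07, adjusted p = 0.0283).

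**Figure D4:**
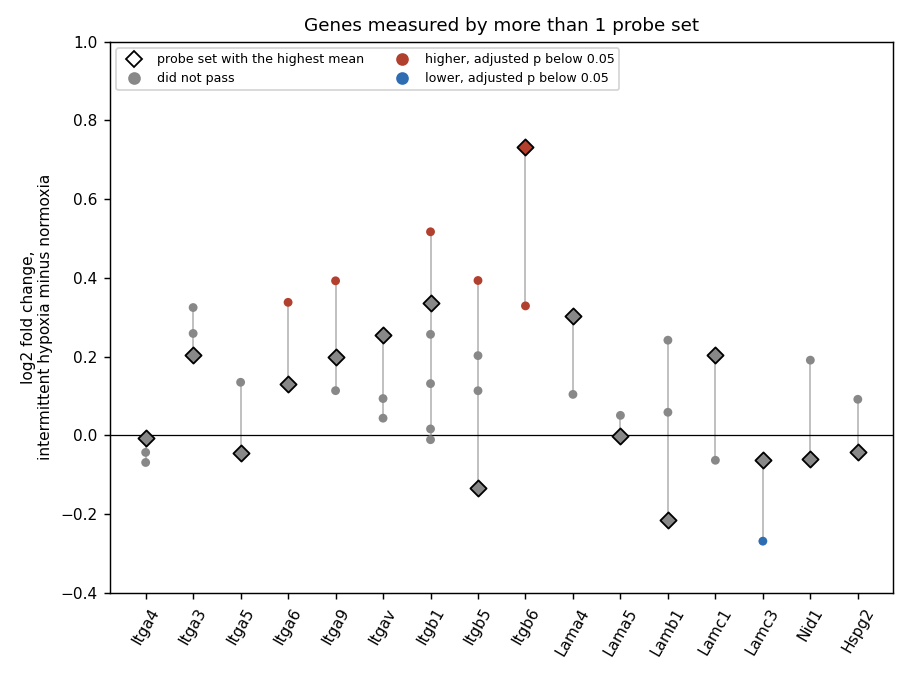
Log2 fold change (intermittent hypoxia minus normoxia) of every probe set of the 16 genes with several. Diamonds mark the probe set with the highest mean, and colour marks the limma call. Both probe sets of Itgb6 are higher, while probe sets of Itgb5 and Lamb1 lie on both sides of 0.

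Other genes of integrin signalling and of the basement membrane were read from lists chosen with earlier results of these data known. Over all genes 8.93% rose and 3.6% fell, and the counts of these lists are a description without a test. Of 26 integrin adaptors and adhesion kinases 6 rose and none fell. Lims1 (0.53, SE 0.10, limma adjusted p = 0.00854) and Ilk (0.54, SE 0.12, adjusted p = 0.0158) encode partners in the complex that binds beta chain tails. Vcl, the actin linker vinculin, rose by 0.56 (SE 0.11, adjusted p = 0.00928) and the scaffold gene Bcar1 by 0.27 (SE 0.07). The count was 3 without hypoxia array 2 or 3 or normoxia array 4, and 10 without normoxia array 5. After quantile normalization it was 4 higher and 3 lower.

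Of 17 integrin ligands 4 rose and 2 fell, beside 8.93% and 3.6% of all genes. Npnt, which encodes nephronectin, the ligand of the receptor that Itga8 forms, averaged 12.61 ± 0.19 in hypoxia and 12.05 ± 0.23 in normoxia (SD, n = 5 each), a rise of 0.57 (SE 0.12, limma adjusted p = 0.0125) without overlap. Icam1, the vascular ligand of beta-2 integrins, rose by 0.53 (SE 0.10, adjusted p = 0.00915), also without overlap. Thbs1, a matricellular ligand, rose by 1.25 (SE 0.23). Madcam1, the vascular ligand of alpha-4 beta-7, fell, with a log2 fold change of -0.31 (SE 0.07, adjusted p = 0.0182).

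Of 18 other basement membrane genes 7 rose and 2 fell, beside 8.93% and 3.6% of all genes. Col4a3 and Col4a5, type IV collagen chains of the alveolar and glomerular membranes, rose by 0.74 (SE 0.13, limma adjusted p = 0.0083) and 0.49 (SE 0.09, adjusted p = 0.00793). Egfl6, a secreted basement membrane protein, rose by 0.63 (SE 0.11) and Col18a1, the source of endostatin, by 0.45 (SE 0.10). Their count of 9 dropped to 4 when hypoxia array 1 or normoxia array 3 or 4 was left out, and to 5 for hypoxia array 4 or normoxia array 2. Of 9 laminin receptors that are not integrins 3 rose, the syndecan gene Sdc1 by 0.50 (SE 0.10), Bcam by 0.46 (SE 0.13) and Dag1, which encodes dystroglycan, by 0.27 (SE 0.07). That count was 1 without hypoxia array 1, 2 or 3 or normoxia array 2, 3 or 4. Without normoxia arrays 2 to 4 together no gene of these 4 lists passed the adjusted limma test. At an unadjusted p under 0.05 there were then 5 higher and 3 lower adaptors and kinases, 5 higher and 2 lower ligands, 5 higher and 2 lower other basement membrane genes, and 1 higher and 1 lower receptor. The difference was 0.37 for Npnt and 0.56 for Col4a3.

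The remaining marker lists held 1 rise among 3 mesothelial genes (mean level 7.93 to 8.21 in hypoxia and 7.67 to 8.15 in normoxia) and no call among 5 cardiac muscle genes (10.85 to 11.56 in hypoxia and 11.22 to 11.51 in normoxia). Of 3 adipose genes 1 fell (7.01 to 7.77 in hypoxia and 7.67 to 8.44 in normoxia), and of 3 red cell genes 1 fell (7.33 to 7.71 in hypoxia and 7.84 to 8.43 in normoxia). For comparison, 8.93% of all genes rose and 3.6% fell.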

How the data were processed

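Total RNA of whole lung was measured on 10 arrays. The authors deposited log2 probe set levels. Per the submitters' processing notes the tools include RMA and affy, with no role or version. The unequal array spreads leave the normalization between arrays uncertain. No detection call comes with these values. Groups followed the sample titles. All 22626 probe sets were fitted unfiltered with limma 3.58.1 (lmFit, eBayes) in R 4.3.3. Tests were two-sided, p-values were adjusted across the whole table by the method of Benjamini and Hochberg, and 0.05 was the threshold. Probe sets were named from the platform annotation: 20380 had 1 symbol, 691 several and 1555 none.

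Every member could be named. Of each pathway list up to 4 passing genes with the smallest adjusted p were named, and of marker lists passing or bright genes. Some blood cell markers that did not rise were named beside those that rose. Members and lists were chosen with earlier results of these data known, and so were the promoter motifs. List levels are means of log2 values per array. Alternatives were SAM with 100 permutations (the test in the design text), a replicate block, quantile normalization, median centring, a level filter, eBayes trend and robust options, arrayWeights, means of a gene's probe sets, leaving out each array, and leaving out normoxia arrays 2 to 4. They were applied to the pathway and pan-leukocyte lists after the data were seen. The fits were tested on simulated data.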

Additional observations from a re-analysis of the deposited data

Results flagged for a closer look

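Itgax on hypoxia array 5 read 8.73, apart from the other hypoxia arrays, which ran from 9.27 to 9.43. Its gap to the nearest array was 0.778 of the range of the group, above the critical value of 0.71 for 5 samples. It was the only such value in 70 groups of 5 arrays (35 genes in 2 conditions), where chance gives about 1 in 20. Without this array the log2 fold change of Itgax was 0.79 with a limma adjusted p of 0.00161.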

How the results depend on the processing

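The 9 genes that passed were each refitted under up to 19 alternative settings, which gave 170 values in all. Every value kept its direction and 131 passed, and 10 of the 19 settings lost at least 1 of the calls. Without normoxia arrays 2, 3 and 4, leaving 5 arrays against 2, limma called 0 leukocyte integrins, 0 matrix integrins and 0 basement membrane genes, and 16 probe sets over the whole array, against 2699 with all arrays; the smaller number of arrays is part of that alternative. At an unadjusted limma p under 0.05 it held 4 leukocyte integrins, all higher, 3 matrix integrins (2 higher and 1 lower) and 4 basement membrane genes (2 higher and 2 lower). Leaving out 1 array gave 1 to 3 leukocyte integrins (1 without hypoxia array 2 or normoxia array 3), 2 to 4 matrix integrins (4 without normoxia array 5), 1 to 6 basement membrane genes (2 when hypoxia array 2 or 3 or normoxia array 2 was left out, 1 for hypoxia array 1 or normoxia array 3 or 4) and 1003 to 4800 probe sets. Deviations of same-numbered arrays correlated from -0.24 to 0.22. The labels do not say whether same-numbered animals were paired, and these few values cannot decide it. The replicate block gave 2 basement membrane genes and 1755 probe sets and took the calls of Itgb7, Lama2 and Nid2. Over the whole array SAM called 4521 probe sets and arrayWeights 4132. Among laminin receptors that are not integrins 1 gene passed under the block or quantile normalization, and SAM and arrayWeights each called 10 adaptor and kinase genes. Averaging all probe sets of each gene called 4 matrix integrins, adding Itga9 and Itgb1. Quantile normalization moved the higher share of changed probe sets to 59.1% (1350 higher and 935 lower), against 71.2% as deposited (1923 and 776), and the members to 7 higher and 3 lower, against 8 and 1. It took the calls of Lama2 and Nid2 and added falls of Itgb5 (-0.29), Lamb1 (-0.32) and Nid1 (-0.20). SAM also called Itgb5 and Lamb1 lower, and arrayWeights called Lamb1 lower. The cause of these differences was not tested. In the main fit the other probe sets of Itgb5, Lamb1 and Nid1 had positive log2 fold changes. With the level filter, 11 of 14 basement membrane genes, 10 of 14 matrix integrins and 3 of 7 leukocyte integrins were tested. The leukocyte integrins it kept were Itgax, Itgb2 and Itgb7. The filter left out Nid2, the only lower member, so its call was not tested there.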
